A study of Mus musculus with 6 samples.

Results

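Glycolysis and the pentose phosphate pathway were examined in regulatory T cells (Tregs) through 33 genes: 16 glycolytic genes from hexokinase to pyruvate kinase, 2 lactate dehydrogenases, 5 genes of the pyruvate dehydrogenase step, 7 pentose phosphate genes and 3 genes of side branches. They were chosen by name as enzymes of these routes, with earlier results of these data known. All 33 were found among the 13709 rows of the count table. Bulk RNA-Seq compared CD4+YFP+CD25+ Tregs of 3 WT samples, from Foxp3Cre mice, with 3 KO samples, from Foxp3Cre Zfp335fl/fl mice, in which Cre deletes the gene of the zinc finger protein Zfp335 in these cells. All mice were C57BL/6 and, per the study's methods, 2 weeks old. Both genotypes carry Cre recombinase and YFP behind the Foxp3 coding sequence, so that deletion and sorting both depend on Foxp3 expression. The labels name lymph nodes in one field and spleen in another, and whether a sample came from 1 mouse or several was not stated, so p-values measure only the spread between these samples.

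Glycolysis splits glucose into pyruvate in the cytosol, with a small yield of ATP that does not need oxygen. Lactate dehydrogenase turns pyruvate into lactate, whereas the pyruvate dehydrogenase complex turns it into acetyl-CoA inside the mitochondria, and the pentose phosphate pathway diverts glucose 6-phosphate to make NADPH and ribose. T cells raise glycolysis when they are activated and divide, while Tregs at rest are known to lean on mitochondrial oxidation.

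Depth was 32032631 to 40728419 counts per sample. Zfp335 was at 101, 94.3 and 103 CPM in WT and 36.98, 37.9 and 40.2 CPM in KO, which is 38.6% of WT (edgeR log2 fold change -1.37 ± 0.07 SE, adjusted p = 2.14e-05). The label of sorted Tregs was checked against defining markers: Foxp3 was at 738, 642 and 1189.8 CPM in WT and 459.7, 472 and 463 CPM in KO and Cd4 at 682, 646 and 648 CPM in WT and 814, 784 and 765 CPM in KO, so both were abundant in every sample, and the Foxp3 groups did not overlap. Il2ra, the gene of CD25, was at 903, 909 and 1302 CPM in WT and 954, 964 and 957 CPM in KO, with overlapping groups. The T cell markers Cd3e, Cd3d and Cd3g were lower in every KO sample than in any WT sample, at 73.0%, 66.5% and 71.4% of WT. WT replicate 3 stood apart from the other WT samples. The biological coefficient of variation was 0.263 over the 3 WT samples, 0.126 over WT replicates 1 and 2, and 0.0703 over the KO samples.

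Of the 33 genes, 11 rose in KO, 3 fell and 19 did not pass the test, which asked for a fold change above 1.5, a p under 0.05 and an adjusted p under 0.1 in edgeR's quasi-likelihood test. All 33 had enough counts to be tested. Over all 13594 genes tested, 24.4% were called, 11.9% as higher and 12.5% as lower in KO, whereas the 33 genes had 33.3% called higher and 9.09% called lower. The median log2 fold change was 0.34 over the 33 genes and -0.04 over all genes. Without the fold cutoff, 17 of the 33 were higher and 8 lower at an adjusted p under 0.1, beside 22.7% and 24.3% of all genes (47% in either direction). The 3 WT and 3 KO values did not overlap for 27 of the 33 genes, 19 higher and 8 lower in KO, beside 53.8% of all genes (26.2% higher and 27.6% lower). Without WT replicate 3, the calls were again 11 higher and 3 lower, and the median was 0.31. When glmTreat tested against a 1.5-fold change itself, 9 were called higher and 1 lower, and Pfkp, Pfkl, Ldhb and Pdk2 lost their call.

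Most of the added counts came from a few abundant genes. The 33 genes together took 0.685%, 0.682% and 0.573% of all counts in the WT samples and 1.15%, 1.10% and 1.12% in the KO samples, with means of 0.647% ± 0.0638 and 1.12% ± 0.021 (SD, n = 3 each). No KO sample came near a WT sample, and the ratio of the means was 1.74. Most of this lay in the 8 genes Aldoa, Tpi1, Gapdh, Pgk1, Pgam1, Eno1, Pkm and Ldha, which are the most abundant isozyme of each step from aldolase to lactate. They were grouped after their values were seen. These 8 went from 0.414% ± 0.0489 of all counts in WT to 0.853% ± 0.0164 in KO, and Gapdh alone from 0.127% ± 0.0164 to 0.271% ± 0.00749. In bulk RNA, a change in the kinds of cells that were sorted and a change in RNA per cell cannot be told apart, and a share of counts says nothing of the RNA per cell.

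**Figure D1:**
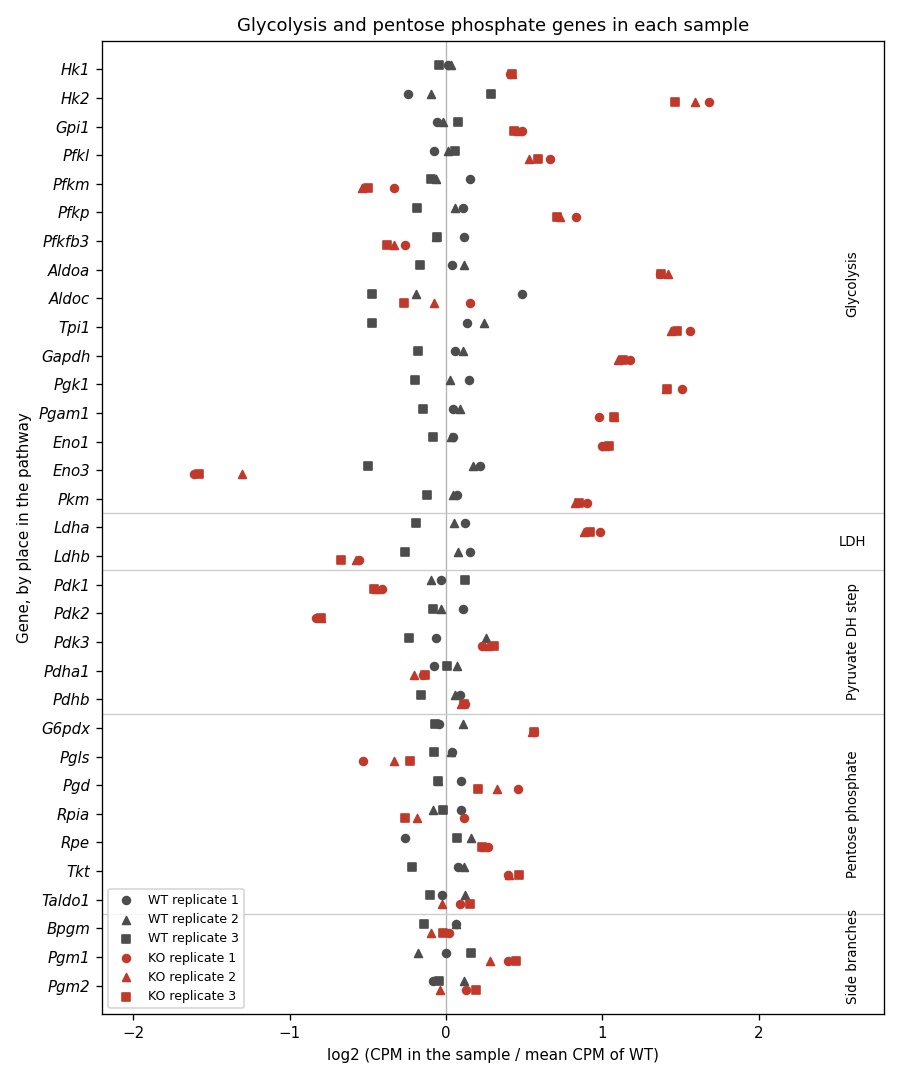
Level of each of the 33 genes in each sample, as log2 of its CPM over the mean CPM of the WT samples (x axis), with genes in pathway order (y axis). Grey symbols are WT, red symbols are KO, and the shape gives the replicate, with LDH for lactate dehydrogenase and DH for dehydrogenase. From Aldoa to Pkm, the KO values of most genes lie to the right of all WT values, while those of Eno3 lie to the left, and the pentose phosphate genes lie closer to 0.

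By place in the pathway, 10 of the 16 glycolytic genes rose and 1 fell, with a median log2 fold change of 0.81. Of the 2 lactate dehydrogenases, 1 rose and 1 fell. Of the 5 genes of the pyruvate dehydrogenase step, 0 rose and 1 fell, with a median of -0.16. Of the rest, 0 of the 7 pentose phosphate genes and 0 of the 3 side branch genes were called, with medians of 0.25 and 0.10. Over all genes tested, 24.4% were called, 11.9% as higher and 12.5% as lower in KO. In the groups of 3 to 7 genes, 0 or 1 call cannot be told apart from that share. For the pentose phosphate genes, edgeR's adjusted p was under 0.1 without the fold cutoff for 4 of the 7, of which 3 were higher and 1 lower in KO, beside 47% of all genes in either direction. Summed over their genes, glycolysis went from 4571 ± 330.4 to 8963 ± 146.6 CPM, the pyruvate dehydrogenase step from 399 ± 9.97 to 361 ± 5.21 CPM, and the pentose phosphate genes from 675 ± 48.6 to 818 ± 14.2 CPM (SD, n = 3 each).

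The 300 bases around the transcription start (250 before and 50 after, RefSeq, GRCm38.p6) were searched on both strands for ACGTG, the core of the element bound by hypoxia-inducible factors, and for CACGTG, the E-box bound by Myc and related factors. Each CACGTG also holds ACGTG on both strands, so the matches overlap. ACGTG was in a window of 17 of the 33 genes (51.5%), of 7 of the 11 genes called higher, 1 of the 3 called lower and 9 of the 19 not called. The share was 28.3% among the 10654 tested genes with a window and 21.8% among all genes with one. Counted by window, 41.7% of the 48 windows of the 33 genes held it, beside 19.6% of all 32851 windows. All windows include those of genes not tested, and the share among windows of tested genes was not computed. CACGTG was in a window of 4 of the 33 genes (12.1%), beside 11.3% of tested genes, and in 8.33% of their windows, beside 7.15% of all windows. A match in these letters is a description of the sequence, not a site in use. The windows of Hk2, Tpi1 and Pgk1, which had the largest rises of the 33, of Ldha, the last step to lactate, and of Eno3, which had the largest fall, are shown to set windows with and without a match side by side, and they were picked after the values were seen. Matches are in capitals, read as CACGT where ACGTG is on the other strand, and the rest is in lower case. Hk2 (chr6:82774405-82774704, minus strand) and Pgk1 (chrX:106186850-106187149, plus strand) each hold 2 ACGTG matches. Ldha (chr7:46845554-46845853, plus strand) holds 3 stretches with a match, of which 2 are CACGTG. Where a gene had more than 1 window, the window with the most ACGTG matches was shown. The other Ldha window (chr7:46846832-46847131, plus strand) holds 0 matches. Tpi1 (chr6:124814109-124814408, minus strand) and Eno3 (chr11:70656926-70657225, plus strand) hold 0.
Hk2: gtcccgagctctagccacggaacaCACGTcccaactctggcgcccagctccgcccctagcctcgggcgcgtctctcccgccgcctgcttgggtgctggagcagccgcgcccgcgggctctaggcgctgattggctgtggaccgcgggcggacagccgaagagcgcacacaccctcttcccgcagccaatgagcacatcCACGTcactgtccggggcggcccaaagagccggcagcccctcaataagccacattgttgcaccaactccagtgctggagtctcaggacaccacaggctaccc
Pgk1: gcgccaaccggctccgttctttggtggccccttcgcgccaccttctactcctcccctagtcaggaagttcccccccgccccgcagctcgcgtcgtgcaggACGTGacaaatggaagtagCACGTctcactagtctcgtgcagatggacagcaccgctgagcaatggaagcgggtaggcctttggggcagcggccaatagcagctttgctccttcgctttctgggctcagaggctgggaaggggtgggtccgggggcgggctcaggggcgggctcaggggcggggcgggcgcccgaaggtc
Ldha: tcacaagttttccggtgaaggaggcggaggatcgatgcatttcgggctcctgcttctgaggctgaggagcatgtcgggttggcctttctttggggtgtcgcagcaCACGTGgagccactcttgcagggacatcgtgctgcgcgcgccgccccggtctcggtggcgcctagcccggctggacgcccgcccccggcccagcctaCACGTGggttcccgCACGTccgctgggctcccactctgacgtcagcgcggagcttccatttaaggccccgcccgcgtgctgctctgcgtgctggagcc
Tpi1: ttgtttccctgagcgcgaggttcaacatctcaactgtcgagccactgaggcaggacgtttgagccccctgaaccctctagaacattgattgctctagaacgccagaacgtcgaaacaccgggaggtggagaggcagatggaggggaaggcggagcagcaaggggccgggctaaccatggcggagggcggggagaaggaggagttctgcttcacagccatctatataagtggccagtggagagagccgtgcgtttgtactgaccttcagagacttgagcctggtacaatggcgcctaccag
Eno3: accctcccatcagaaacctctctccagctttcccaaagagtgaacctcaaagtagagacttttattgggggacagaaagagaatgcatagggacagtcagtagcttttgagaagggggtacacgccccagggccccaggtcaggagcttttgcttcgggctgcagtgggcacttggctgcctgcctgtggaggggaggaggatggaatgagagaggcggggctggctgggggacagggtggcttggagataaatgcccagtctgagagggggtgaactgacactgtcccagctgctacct

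Hexokinase traps glucose in the cell as glucose 6-phosphate, and of its 2 listed isozymes the less abundant one moved most. Hk2, the inducible isozyme (chr6:82725025-82774454), was at 12.7, 14.1 and 18.3 CPM in WT and 48.3, 45.3 and 41.6 CPM in KO. Its KO values were all more than 2 times the highest WT value, and it had the largest fold change of the 33 genes, a ratio of means of 3.0 (edgeR log2 fold change 1.58 ± 0.15 SE, adjusted p = 0.000216). Unlike for most of the 33 genes, replicate 3 was the highest of the WT samples for Hk2, and without it the log2 fold change was 1.75. Hk1, the constitutive isozyme, was at 194, 196 and 186 CPM in WT and 255, 257 and 257 CPM in KO. Its groups did not overlap either, but the ratio of 1.34 was under the fold cutoff (edgeR log2 fold change 0.42 ± 0.06 SE, adjusted p = 0.00139). Per transcript length, Hk1 remained far above Hk2 in both genotypes, with a mean of 116 TPM in WT and 152 TPM in KO against 6.99 and 20.7 TPM for Hk2.

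Gpi1, glucose 6-phosphate isomerase, gives the substrate of phosphofructokinase, which commits sugar to glycolysis. Gpi1 was at 412, 423 and 452 CPM in WT and 601, 591 and 581 CPM in KO, with no overlap and a ratio of 1.38 that missed the fold cutoff (edgeR log2 fold change 0.46 ± 0.07 SE, adjusted p = 0.00130). The 3 phosphofructokinase isozymes did not move alike. The platelet type Pfkp was at 199, 192 and 162 CPM in WT and 328, 305 and 301 CPM in KO and rose 1.69-fold (edgeR log2 fold change 0.76 ± 0.09 SE, adjusted p = 0.000673). The liver type Pfkl was at 61.3, 65.03 and 67.3 CPM in WT and 102, 93.1 and 97.2 CPM in KO, a rise of 1.51-fold that lay at the cutoff (edgeR log2 fold change 0.60 ± 0.07 SE, adjusted p = 0.000644). Its call was lost without WT replicate 1 or KO replicate 1 (log2 fold change 0.56 in both) and with scaling to library totals alone (0.56). The muscle type Pfkm was at 33.6, 28.9 and 28.3 CPM in WT and 24.1, 20.9 and 21.4 CPM in KO, lower in every KO sample than in any WT sample, at 73.0% of WT and short of the fold cutoff (edgeR log2 fold change -0.45 ± 0.11 SE, adjusted p = 0.0125). Pfkfb3, which makes the activator fructose 2,6-bisphosphate, was at 83.6, 73.9 and 74.3 CPM in WT and 64.6, 61.4 and 59.5 CPM in KO. It was also lower in each KO sample, at 80.0% of WT, and did not pass the fold cutoff (edgeR log2 fold change -0.32 ± 0.08 SE, adjusted p = 0.0137). Gpi1 shares 11.5% of its exon bases with Gm26762 and Pfkp 5.6% with Pitrm1, both on the other strand, and Pfkm shares 10.2% with Gm26513 on the same strand. The strand setting of the counting was not stated.

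From aldolase to pyruvate kinase, the most abundant isozyme of each step rose in KO. Aldoa, which splits fructose 1,6-bisphosphate, was at 290.4, 307 and 252 CPM in WT and 733, 759 and 734 CPM in KO and rose 2.62-fold (edgeR log2 fold change 1.39 ± 0.09 SE, adjusted p = 3.71e-05). The KO samples lay within a narrow range, and the lowest of them was more than 2 times the highest WT value. Tpi1, which interconverts the 2 triose phosphates, was at 131, 141 and 85.97 CPM in WT and 353, 324 and 333 CPM in KO and rose 2.82-fold (edgeR log2 fold change 1.49 ± 0.17 SE, adjusted p = 0.000542). Among the WT samples, replicate 3 was well below the others for Tpi1, and without it the log2 fold change was 1.30.

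Gapdh, the dehydrogenase that oxidizes glyceraldehyde 3-phosphate (chr6:125161715-125166467), is often used as a reference transcript. It was the most abundant of the 33 genes per transcript length, with a mean of 2273 TPM in WT and 4912 TPM in KO. It was at 1301, 1349 and 1106 CPM in WT and 2829, 2680.4 and 2746 CPM in KO, and it rose 2.20-fold (edgeR log2 fold change 1.14 ± 0.09 SE, adjusted p = 9.65e-05). Gapdh has 173 annotated pseudogenes, taken as those at least 90% identical over at least 50% of their length or named as its pseudogene, and 7 of them have rows in the table. Their counts came to 0.799 to 1.38% of the Gapdh counts of a sample, and adding them to Gapdh changed no call. Another 12 of the 33 genes have 1 to 13 annotated pseudogenes at this identity, with no row in the table. Reads can be shared between these copies, so the levels of these genes are uncertain to that extent.

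Pgk1, the first step that yields ATP, was at 236, 217 and 186 CPM in WT and 605, 565 and 568 CPM in KO and rose 2.72-fold (edgeR log2 fold change 1.44 ± 0.10 SE, adjusted p = 5.29e-05). Pgam1, phosphoglycerate mutase, was at 103, 106 and 90.5 CPM in WT and 197, 211 and 211 CPM in KO and rose 2.06-fold (edgeR log2 fold change 1.04 ± 0.08 SE, adjusted p = 9.76e-05). Both steps thus had KO samples wholly above the WT samples, and Eno1, the ubiquitous enolase, had the same pattern, at 686, 682 and 629 CPM in WT and 1331, 1349.7 and 1372 CPM in KO, a rise of 2.03-fold (edgeR log2 fold change 1.02 ± 0.07 SE, adjusted p = 4.23e-05). Pkm, the pyruvate kinase gene of these cells, whose M1 and M2 forms are spliced from one gene, was at 913, 900.1 and 799 CPM in WT and 1627, 1546 and 1573 CPM in KO and rose 1.82-fold (edgeR log2 fold change 0.86 ± 0.07 SE, adjusted p = 0.000155). Gene counts do not tell its M1 and M2 forms apart, and 15.3% of its exon bases are shared with Gm49759 on the same strand. Over the 8 most abundant isozymes from Aldoa to Ldha, 8 of 8 were called higher, beside 11.9% of all genes tested. They were grouped after their values were seen, and the listed Aldoc, Eno3 and Ldhb of the same steps are left out. For the 8, log2 fold changes ran from 0.86 to 1.49, with a median of 1.09. Without WT replicate 3, their log2 fold changes lay between 0.80 and 1.35, and all 8 were still called.

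Some genes of the glycolytic list did not follow their step. Eno3, the enolase of muscle (chr11:70657202-70662513), was at 81.7, 79.5 and 49.9 CPM in WT and 23.05, 28.5 and 23.5 CPM in KO. It fell to 35.6% of WT (edgeR log2 fold change -1.49 ± 0.19 SE, adjusted p = 0.000884), the largest fall of the 33 genes, while Eno1 rose at the same step. The lowest WT sample, WT replicate 3, was still above the highest KO sample for Eno3, and without it the log2 fold change was -1.69. Aldoc, the aldolase of brain, was near the bottom of the range in both genotypes, at 5.60, 3.50 and 2.88 CPM in WT and 4.43, 3.78 and 3.32 CPM in KO. The groups overlapped, and the difference did not pass the test (edgeR log2 fold change -0.06 ± 0.29 SE, adjusted p = 0.901).

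Lactate dehydrogenase is a tetramer of A and B chains, and the A chain is known to favour the conversion of pyruvate to lactate. Ldha, the A chain, was at 623, 595 and 503 CPM in WT and 1137, 1056 and 1087 CPM in KO and rose 1.91-fold (edgeR log2 fold change 0.93 ± 0.09 SE, adjusted p = 0.000292). Ldhb, the B chain, was at 61.5, 58.5 and 46.2 CPM in WT and 37.7, 37.2 and 34.7 CPM in KO and fell to 66.0% of WT (edgeR log2 fold change -0.60 ± 0.12 SE, adjusted p = 0.00513). Both genes had no overlap between the groups, in opposite directions. The fall of Ldhb lay at the fold cutoff: its call was lost when WT replicate 1, WT replicate 2 or KO replicate 3 was left out (log2 fold changes -0.52, -0.56 and -0.56) and in DESeq2 (-0.58), while its direction held in each.

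**Figure D2:**
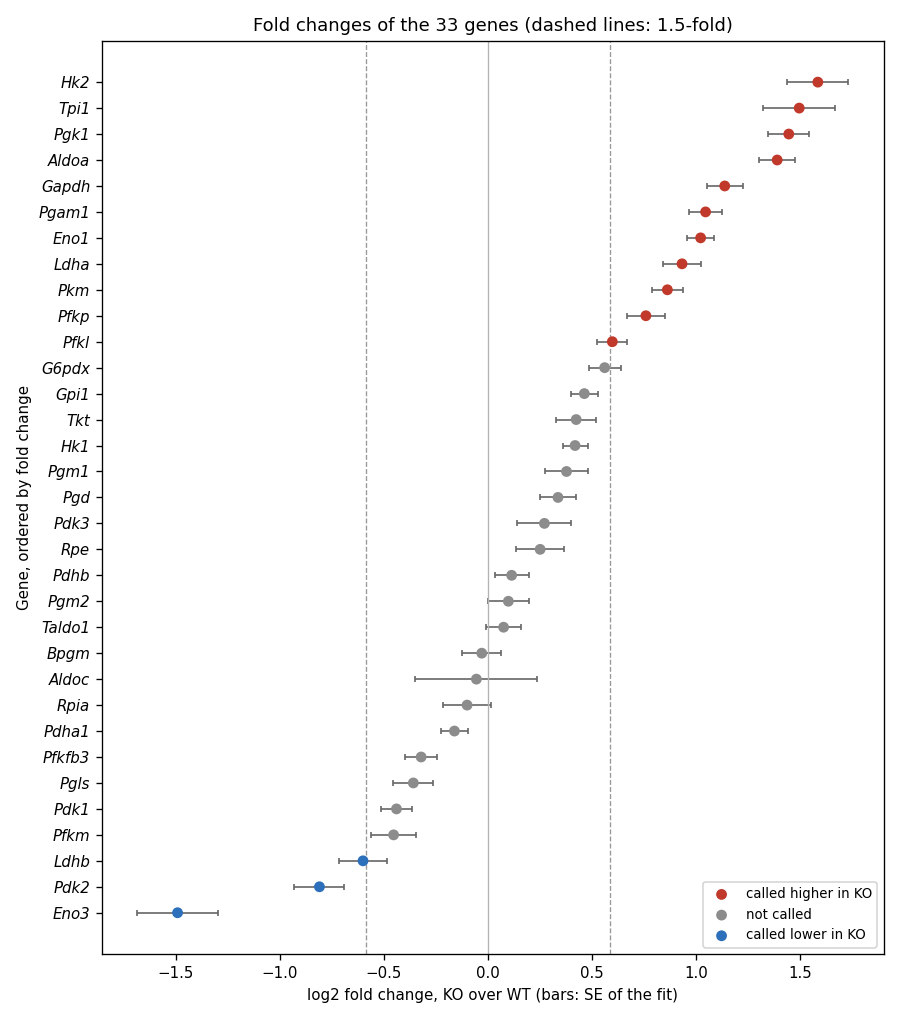
Log2 fold change of KO over WT (x axis) for the 33 genes in order of size (y axis), with bars for the SE of edgeR's fit and dashed lines at a 1.5-fold change. Red points are the 11 genes called higher, blue points the 3 called lower and grey points the 19 not called. Hk2, Tpi1, Pgk1 and Aldoa are at the top, and Eno3 is alone at the bottom, at -1.49.

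Isozyme shares within a step, computed from counts per transcript length, do not depend on how libraries are scaled. Of 18 shares in 7 enzymes, 16 did not overlap between WT and KO. The shares of an enzyme sum to 100%, so they are not independent, and in the 3 enzymes with 2 isozymes each difference counts 2 times, the uncertain Pgm1 and Pgm2 rows included. Each of these 16 had p = 0.1 in an exact two-sided permutation test, which is the smallest p that 3 against 3 samples can give, and an adjusted p of 0.113 over the 18 shares, so none can pass 0.05 in this design. The share of Eno1 among the enolases was 85.2, 85.2 and 89.6% in WT and 97.3, 96.9 and 97.4% in KO, and that of Eno3 was 13.1, 12.9 and 9.20% in WT and 2.18, 2.65 and 2.16% in KO. Eno3 thus went from 11.7% ± 2.20 in WT to 2.33% ± 0.277 in KO, a difference of -9.40 percentage points. Ldha made up 87.9, 88 and 88.7% in WT and 95.6, 95.3 and 95.7% in KO of lactate dehydrogenase transcripts. The B chain went from 11.8% ± 0.422 in WT to 4.45% ± 0.209 in KO.

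Hk2 took 4.81, 5.27 and 6.80% in WT and 12.6, 11.9 and 10.9% in KO of hexokinase transcripts, and its mean went from 5.63% ± 1.05 in WT to 11.8% ± 0.851 in KO, a difference of 6.15 percentage points. Even so, Hk1 made up at least 85.7% of hexokinase transcripts in every sample. Pfkm went from 14.6% ± 0.868 in WT to 7.04% ± 0.215 in KO of phosphofructokinase transcripts and Pfkp from 61.4% ± 2.63 in WT to 68.9% ± 0.564 in KO, while the share of Pfkl overlapped (24.1% in WT and 24% in KO, exact permutation p = 0.9). Among the pyruvate dehydrogenase kinases, Pdk3 went from 34.7% ± 5.14 in WT to 48.1% ± 0.942 in KO, while Pdk1 went from 48.4% ± 4.94 in WT to 40.8% ± 1.0 in KO and Pdk2 from 16.9% ± 1.34 in WT to 11% ± 0.0907 in KO. Without WT replicate 3, the difference for Pdk1 was -4.96 percentage points in place of -7.56, and without WT replicate 2 that for the Pgm1 row was 2.31 in place of 4.85. Pdk4, which was called higher at a low level, was not part of these shares. Shares from counts not divided by length had the same direction for Hk2, Pfkm, Pfkp, Eno1, Eno3, Ldha, Ldhb, Pdk1, Pdk2 and Pdk3. Hk3, which is not one of the 33 genes, gave the other overlapping share (exact permutation p = 1).

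**Figure D3:**
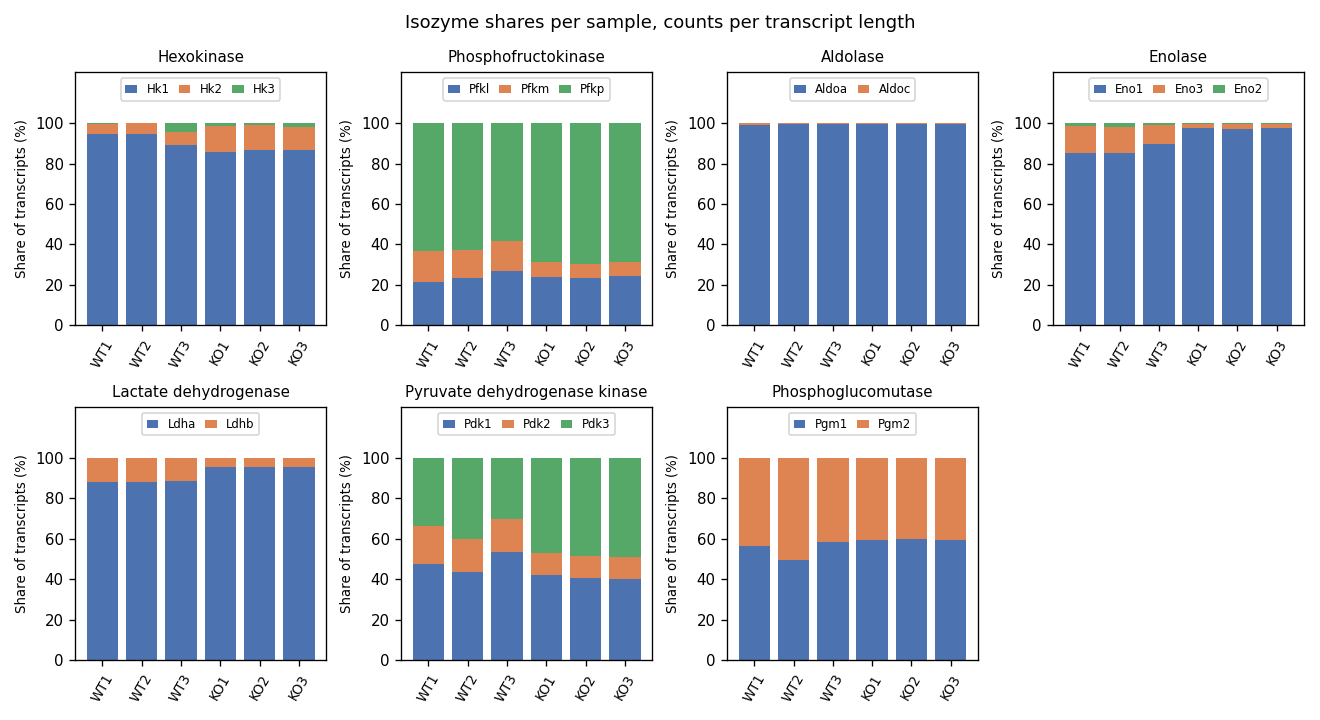
Share of each isozyme in the transcripts of its enzyme (y axis, percent of counts per transcript length) in each of the 6 samples (x axis), for 7 enzymes. In enolase and lactate dehydrogenase, the minor isozymes Eno3 and Ldhb take a thinner band in all 3 KO samples, at 2.33% and 4.45% on average, while Hk2 takes a wider band among hexokinases.

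Inside the mitochondria, the pyruvate dehydrogenase complex turns pyruvate into acetyl-CoA. Its E1 subunits are encoded by Pdha1 and Pdhb, and the Pdk kinases switch it off by phosphorylation. Pdk2 was at 15.2, 13.8 and 13.3 CPM in WT and 7.94, 8.11 and 8.14 CPM in KO and fell to 57.1% of WT, with no overlap (edgeR log2 fold change -0.81 ± 0.12 SE, adjusted p = 0.00161). It was the only one of the 5 genes that was called. Pdk1 was at 91.3, 87.3 and 101 CPM in WT and 70.2, 68.4 and 67.9 CPM in KO. All KO values were below the WT values, but 73.7% of WT was short of the fold cutoff (edgeR log2 fold change -0.44 ± 0.08 SE, adjusted p = 0.00305). Pdk3 was at 26.2, 32.8 and 23.3 CPM in WT and 32.2, 33.1 and 33.98 CPM in KO, with overlapping groups (edgeR log2 fold change 0.27 ± 0.13 SE, adjusted p = 0.140).

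Neither E1 subunit gene was called. Pdha1 was at 178, 196 and 188 CPM in WT and 169, 163 and 171 CPM in KO, a ratio of 0.894 with no overlap (edgeR log2 fold change -0.16 ± 0.07 SE, adjusted p = 0.0911), and it shares 16.1% of its exon bases with Map3k15 on the other strand. In the edgeR fit with GC content and length offsets its log2 fold change was -0.29 (adjusted p = 0.00565). Pdhb was at 81.7, 80.2 and 68.9 CPM in WT and 83.9, 82.3 and 83.5 CPM in KO, a ratio of 1.08 (edgeR log2 fold change 0.11 ± 0.08 SE, adjusted p = 0.310), and its sign changed in a fit with GC content and length offsets (-0.09).

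In the oxidative branch of the pentose phosphate pathway, which makes NADPH, the first enzyme came closest to a call. G6pdx, glucose 6-phosphate dehydrogenase, was at 44.7, 49.9 and 43.9 CPM in WT and 68.4, 67.7 and 68.2 CPM in KO. The KO values were nearly equal and all above WT, and the ratio of 1.47 was just under the cutoff (edgeR log2 fold change 0.56 ± 0.08 SE, adjusted p = 0.00108). Without WT replicate 2 it was called (log2 fold change 0.61). Pgd, the second dehydrogenase, was at 106, 95.7 and 95.9 CPM in WT and 137, 124 and 114 CPM in KO, with no overlap and a ratio of 1.26 (edgeR log2 fold change 0.34 ± 0.08 SE, adjusted p = 0.0162). Pgls, the lactonase between them, was at 51.5, 51.1 and 47.6 CPM in WT and 34.6, 39.8 and 42.7 CPM in KO and thus lower in each KO sample, at 78.0% of WT (edgeR log2 fold change -0.36 ± 0.10 SE, adjusted p = 0.0205). Its log2 fold change was -0.02 in the fit with GC content and length offsets, and it shares 20.6% of its exon bases with Fam129c on the same strand. G6pdx shares 13.6% of its exon bases with Ikbkg on the other strand.

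In the nonoxidative branch, which exchanges ribose phosphates with glycolytic sugars, 0 of 4 genes were called, beside 24.4% of all genes. Tkt, transketolase, was at 298, 305 and 243 CPM in WT and 370.2, 373 and 389.9 CPM in KO, with no overlap and a ratio of 1.34 (edgeR log2 fold change 0.42 ± 0.10 SE, adjusted p = 0.0103). Taldo1, transaldolase, was at 124, 138 and 118 CPM in WT and 135, 124 and 141 CPM in KO, with overlapping groups (edgeR log2 fold change 0.07 ± 0.08 SE, adjusted p = 0.520). Rpia, which isomerizes ribose 5-phosphate, was at 42.7, 37.7 and 39.4 CPM in WT and 43.3, 35.2 and 33.2 CPM in KO, also with overlap (edgeR log2 fold change -0.10 ± 0.12 SE, adjusted p = 0.533). Rpe, the epimerase, was at 25.97, 34.8 and 32.6 CPM in WT and 37.5, 36.9 and 36.6 CPM in KO (edgeR log2 fold change 0.25 ± 0.12 SE, adjusted p = 0.128). Its KO values were above all WT values by a narrow margin, but 17.9% of its exon bases lie in Kansl1l on the other strand, whose row fell in KO (log2 fold change -1.24), so its own level is uncertain.

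Among the side branches, Bpgm, which makes 2,3-bisphosphoglycerate, was at 31.8, 31.7 and 27.5 CPM in WT and 30.7, 28.4 and 30.01 CPM in KO (edgeR log2 fold change -0.03 ± 0.09 SE, adjusted p = 0.828). The groups overlapped. Phosphoglucomutases link glucose 6-phosphate to glycogen and to sugar nucleotides. The names Pgm1 and Pgm2 were exchanged between annotation versions, and the table gives names alone, so which of these genes each row holds is uncertain. The gene that GENCODE M21 calls Pgm1 also shares 13.6% of its exon bases with Itgb3bp on the other strand. The row named Pgm1 was at 36.8, 32.4 and 40.9 CPM in WT and 48.2, 44.5 and 50.1 CPM in KO, with no overlap and a ratio of 1.30 (edgeR log2 fold change 0.38 ± 0.10 SE, adjusted p = 0.0232). The row named Pgm2 was at 26.9, 30.9 and 27.6 CPM in WT and 31.1, 27.8 and 32.5 CPM in KO (edgeR log2 fold change 0.10 ± 0.10 SE, adjusted p = 0.482), with overlap between the groups.

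Levels per transcript length were highest mostly for genes of the lower part of glycolysis. In WT, Gapdh was followed by Pkm (923 TPM), Eno1 (846 TPM), Ldha (815 TPM), Aldoa (472 TPM), Gpi1 (382 TPM) and Pgk1 (301 TPM), and the lowest were Hk2 (6.99 TPM) and Aldoc (3.72 TPM). Of the 10 genes with the highest WT level, 7 were called higher in KO, beside 4 of the other 23 and 11.9% of all genes tested. Across the 33 genes, the WT level and the log2 fold change had a Spearman correlation of 0.467 and, on log2 levels, a Pearson correlation of 0.385. These are across genes measured in the same 6 libraries, which are not independent replicates, and both axes use the WT samples. Over 13280 genes with a length, the Spearman correlation was -0.01.

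**Figure D4:**
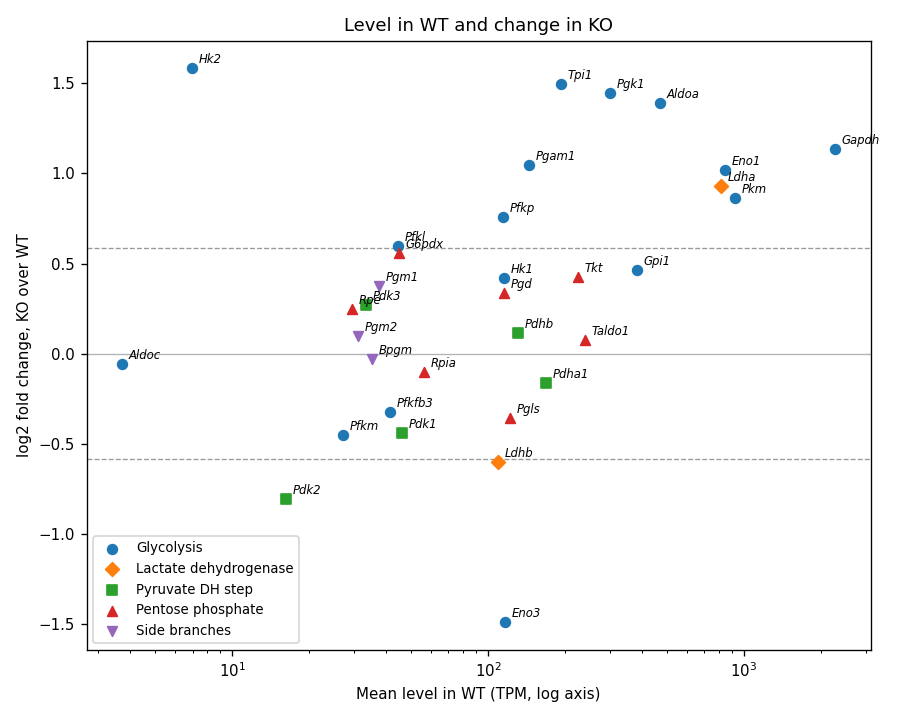
Mean WT level of each of the 33 genes (x axis, TPM, log axis) against its log2 fold change in KO over WT (y axis), with symbols by pathway group and dashed lines at a 1.5-fold change. Gapdh, Pkm, Eno1 and Ldha lie at the upper right, Hk2 lies high at a low level, and Eno3 lies at the bottom at a middle level.

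Other genes of the pathway, such as transporters, remaining isozymes and regulators, were called about as often as all genes. Of 66 listed, 53 were in the table and tested, and 9 of them rose, 6 fell and 38 did not pass the test, so that 28.3% were called beside 24.4% of all genes. Their median log2 fold change was 0.17. The genes called higher included transporters at both ends of the pathway. Slc2a1, the glucose transporter GLUT1, was at 46.1, 49.1 and 47.4 CPM in WT and 76.1, 75.1 and 75.03 CPM in KO and rose 1.59-fold (edgeR log2 fold change 0.67 ± 0.07 SE, adjusted p = 0.000292). Slc2a3, the transporter GLUT3, was at 86.2, 76.7 and 115 CPM in WT and 112, 102 and 108 CPM in KO and did not pass the test (edgeR log2 fold change 0.21 ± 0.14 SE, adjusted p = 0.279). Slc16a1, the lactate and pyruvate transporter MCT1, was at 40.3, 38.2 and 32.95 CPM in WT and 65.9, 68.9 and 65.01 CPM in KO and rose 1.79-fold (edgeR log2 fold change 0.84 ± 0.09 SE, adjusted p = 0.000441). Slc16a3, the lactate exporter MCT4, was at 24.6, 25.1 and 19.5 CPM in WT and 49.7, 49.3 and 51.7 CPM in KO and rose 2.18-fold (edgeR log2 fold change 1.12 ± 0.11 SE, adjusted p = 0.000292). For Slc2a1 and both Slc16a genes, the groups were well apart. The minor sugar transporters Slc2a6 and Slc2a8 were also called higher, at lower levels (3.48 to 5.81 and 7.99 to 12.3 CPM).

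Hif1a, the oxygen-regulated transcription factor known to induce glycolytic genes, was at 191, 228 and 282 CPM in WT and 574, 618 and 590.4 CPM in KO and rose 2.54-fold (edgeR log2 fold change 1.35 ± 0.13 SE, adjusted p = 0.000312). Gpd2, the mitochondrial glycerol 3-phosphate dehydrogenase, which passes electrons from glycerol 3-phosphate to the respiratory chain, was at 22.9, 21.3 and 15.1 CPM in WT and 37.9, 40 and 38.97 CPM in KO and rose 1.97-fold (edgeR log2 fold change 0.98 ± 0.15 SE, adjusted p = 0.00197). The other genes called higher were at low levels: Pdk4, a pyruvate dehydrogenase kinase, went from a mean of 0.207 to 1.34 CPM, and Pygl, a glycogen phosphorylase, from 1.22 to 3.14 CPM. Among the genes called lower, Galm, which converts the anomers of sugars, was at 25.2, 27.6 and 23.1 CPM in WT and 5.91, 5.82 and 4.91 CPM in KO and fell to 21.9% of WT (edgeR log2 fold change -2.19 ± 0.13 SE, adjusted p = 3.33e-05). Adpgk, the ADP-dependent glucokinase, was at 181, 165 and 235 CPM in WT and 118, 104 and 113 CPM in KO and fell to 57.5% of WT (edgeR log2 fold change -0.80 ± 0.13 SE, adjusted p = 0.00252).

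Eno2, the enolase of neurons, went from a mean of 17.5 to 9.17 CPM and also fell (edgeR log2 fold change -0.93 ± 0.22 SE, adjusted p = 0.0114), so both minor enolases, Eno2 and Eno3, were lower in KO while Eno1 was higher. Shpk, sedoheptulokinase, and Rbks, ribokinase, fell to 59.5% and 52.1% of WT at mean levels of 6.58 and 3.04 CPM in KO. Ldhd, which acts on D-lactate, was called lower with overlapping groups, and it shares 42.2% of its exon bases with Znrf1 on the other strand, so its level is uncertain.

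Spread between samples was wider in WT for most of the genes. The coefficient of variation over 3 samples had a median of 8.36% over the 33 genes in WT and 3.9% in KO, and it was larger in WT for 28 of the 33. WT replicate 3 was the lowest WT sample for 22 of the 33 genes, WT replicate 1 for 6 and WT replicate 2 for 5. The median log2 ratio to the WT mean was 0.0604, 0.0588 and -0.0935 in the WT samples and 0.402, 0.286 and 0.324 in the KO samples. Genes of the cell cycle were also higher in KO, and lowest in WT replicate 3. Of 20 listed cell cycle genes, 20 were called higher, beside 11.9% of all genes tested, with a median log2 fold change of 1.67. They summed to 2435, 2423 and 1388 CPM in WT and 6305, 6065 and 6054 CPM in KO. WT replicate 3 was the lowest sample in this sum as in the share of the 33 genes. The part of cell division in the rise of the glycolytic genes was not tested.

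Markers of other cell types also differed. Over all genes tested, 11.9% were called higher and 12.5% lower in KO. In lists as short as these, 0 or 1 call cannot be told apart from those shares. Of 7 listed myeloid markers, 6 were in the table and 5 were called higher, with summed levels of 27.9, 28.7 and 16.7 CPM in WT and 60.8, 58.6 and 53.9 CPM in KO, and the macrophage marker Adgre1 was at most 1.34 CPM in any sample. Of 6 neutrophil markers, S100a8 and S100a9 were in the table. They had 0 counts in WT and summed to 3.57 to 5.42 CPM in KO. In the study's single-cell data from 7-day-old mice, both genes were also high in a dysfunctional Treg subset that accumulated in KO. Among B cell markers, Ighm was at 458, 429 and 698 CPM in WT and 187, 174 and 178 CPM in KO and fell (edgeR log2 fold change -1.56 ± 0.18 SE, adjusted p = 0.000525), while Ms4a1 was at most 1.37 CPM in any sample. The NK markers summed to 3.59 to 5.83 CPM in WT and 14.9 to 16.2 CPM in KO, where most of the sum was Eomes (mean 11.3 CPM). Eomes and Klrb1c were called higher, while Ncr1 was at most 1.25 CPM in any sample and was not called. The CD8 markers summed to 9.32 to 13.2 CPM in WT and 12.0 to 12.7 CPM in KO. Of the 2 CD8 markers, Cd8a was called higher, from a mean of 1.86 to 3.71 CPM, and Cd8b1 was not called. Erythroid markers summed to 84.6, 101 and 23.3 CPM in WT and 43.2, 49.8 and 46.9 CPM in KO, with 0 of 5 called. Stromal and endothelial markers summed to 211 ± 1.88 CPM in WT and 142 ± 4.84 CPM in KO, mostly Pecam1, which T cells also express, and 1 of 4 was called lower. Of 6 Treg markers, 3 were called lower (Foxp3, Ikzf2 and Nrp1), and Il2ra, Ctla4 and Tnfrsf18 were not called. Of 4 tested T cell markers, Cd3d was called lower. Cd3e and Cd3g were also lower in KO without overlap but short of the fold cutoff (edgeR log2 fold changes -0.45 and -0.49, adjusted p = 0.0114 and 0.0136). Cd4 was higher, also short of the cutoff (edgeR log2 fold change 0.26, adjusted p = 0.0143). For scale, the 33 genes summed to 6369 ± 450.6 CPM in WT and 11380 ± 206 CPM in KO. The part of such cells, or of altered Tregs, in the change of these genes was not tested.

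**Figure D5:**
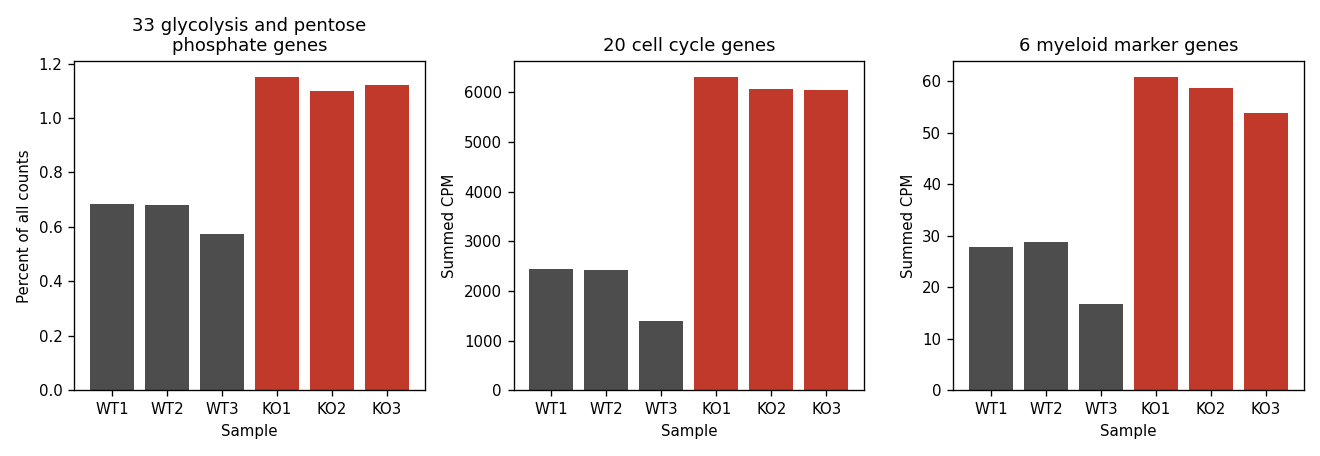
Share of all counts taken by the 33 genes (left, percent), summed level of 20 cell cycle genes (middle, CPM) and summed level of 6 myeloid markers (right, CPM) in each sample (x axis), with WT in grey and KO in red. All 3 panels have every KO bar above every WT bar and WT replicate 3 as the lowest bar, at 0.573%, 1388 CPM and 16.7 CPM.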

How the data were processed

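Whole-number counts per gene were deposited by the authors as 1 table for the 6 samples, with no normalization. The study's methods name SOAPnuke for read filtering, HISAT2 for alignment to mm10 with a single alignment kept for each read, and StringTie for quantification. The annotation, and whether counting used strand, were not given in the sources used here, so reads of near-identical copies or overlapping genes can be misassigned.

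The counts were tested with edgeR 4.0.16 in R 4.3.3. Genes were kept by filterByExpr (minimum count 10), TMM gave the scaling factors, and KO was compared with WT by the quasi-likelihood F-test in all 6 samples, with two-sided p-values adjusted by Benjamini-Hochberg over 13594 genes. The fit was also run on simulated counts, with a spread estimated from these data and shared by both genotypes, and its outcome is not reported here. A gene was called at a fold change above 1.5, p under 0.05 and adjusted p under 0.1, the study's cutoffs. The SE is the log2 fold change divided by the square root of F. CPM are counts scaled to the TMM-adjusted library total, given per sample (replicates 1, 2 and 3 in order) or as mean ± SD over 3 samples. At a depth of 32032631 to 40728419 counts, 3 counts correspond to 0.0747 to 0.0913 CPM, which covers counting error only. GENCODE M21 gave transcript lengths and GC content, which served for TPM and isozyme shares, and promoter windows came from RefSeq.

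All 33 genes are named, with isozymes of fixed groups and other pathway genes that were called. Slc2a3, which was not called, was added after its values were seen. The 33 genes and all lists were chosen with earlier results of these data known, so their counts are descriptions. Alternatives were DESeq2 1.42.0, RLE scaling, library totals alone, other filters and cutoffs, glmTreat, offsets for GC content and length, pseudogene counts added, the replicate number as a block, and leaving out each sample. Some marker results are not reported here.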

Additional observations from a re-analysis of the deposited data

How the results depend on the processing

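With an adjusted p under 0.05 and without the fold cutoff, edgeR called 5244 of all genes and 24 of the 33, 17 higher and 7 lower in KO. With glmTreat, which tests against a 1.5-fold change, it called 1686 of all genes and 10 of the 33, 9 higher and 1 lower (Eno3), and Pfkp, Pfkl, Ldhb and Pdk2 lost their call. Leaving out each sample in turn gave 2867 to 3667 genes called in all, 12 to 14 of the 33, with 10 to 12 higher and 2 to 3 lower, and a median log2 fold change of 0.29 to 0.38. DESeq2 and RLE scaling called 11 higher and 2 lower (without Ldhb), and library totals alone 10 higher and 3 lower (without Pfkl). The fits with no filter, a stricter count filter, GC content and length offsets and added pseudogene counts gave 11 higher and 3 lower. Some genes near 0 changed sign without reaching a call. With GC content and length offsets, the log2 fold change was -0.033 for Pgm2, -0.085 for Pdhb and -0.031 for Taldo1. Leaving out a sample moved Aldoc between -0.25 and 0.27 and Bpgm between -0.10 and 0.0047. The cause of these changes was not tested.

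Same-numbered WT and KO samples are different mice, and the correlations of their deviations from the group means were 0.0377, 0.0404 and -0.0116, so the numbers were not taken to pair the samples. A fit with the replicate number as a block called 3190 of all genes, 11 of the 33 higher and 3 lower, with a median of 0.33.

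Isozyme shares from counts not divided by length differed in size by more than the replicate spread for 9 of 18 shares, with no change of direction among them. Precision is limited by 3 samples per genotype, by the spread of the WT samples, and by reads shared with overlapping genes and pseudogenes.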
